A study of Homo sapiens with 21 samples.

Results

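Genes of myeloid identity and of granule content were followed in OCI-AML3, a human acute myeloid leukaemia line, with HEK293T, a human embryonic kidney line, as a non-myeloid reference. The list held 43 genes chosen by name: 8 granule proteins, 10 surface antigens and integrins, 7 cytokine receptors, 3 Fc receptors and adaptors, 8 transcription factors, 2 secreted factors, 3 genes of calprotectin and the phagocyte oxidase, and 2 genes of leukocyte membrane and cytoskeleton. A gene was kept when it reached 1 CPM (a count scaled to the size of its library) in at least 3 of the 15 OCI-AML3 libraries. In this way 41 of the 43 were kept, out of 60671 genes in the table, and all 41 were among the 14012 genes tested. The study induced endoplasmic reticulum (ER) stress with tunicamycin, which blocks N-linked glycosylation, and sequenced polyadenylated RNA. OCI-AML3 cells were untreated at 0 h, in the solvent DMSO for 4 h or 24 h, or in tunicamycin at 1 μg/mL for 4 h or 24 h. HEK293T cells were in DMSO or in the same dose of tunicamycin for 24 h. Each of these 7 groups had 3 libraries. Each line is a single established line. The authors describe their OCI-AML3 cells as mutated in DNMT3A and NPM1, which all 5 OCI-AML3 groups share, and no transgene is named in the labels. OCI-AML3 was grown in RPMI and HEK293T in DMEM, so that line and medium cannot be told apart. The labels do not say whether replicates were separate cultures, so p-values measure the spread between these libraries, which may be technical.

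Myeloid cells are specified by a small set of transcription factors, among them PU.1 (the product of SPI1), C/EBPα, RUNX1, GFI1, IRF8 and MYB. At the promyelocyte stage these cells make the serine proteases and related proteins of azurophil granules, which are packed on the proteoglycan serglycin and later used to kill microbes. Monocytes and granulocytes then gain adhesion receptors, Fc receptors, the NADPH oxidase and co-receptors such as CD14. Most secreted, granule and surface proteins enter the ER as they are made, where many receive N-linked glycans.

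The libraries held 13838480 to 19961819 counts, so that 3 counts, the limit that a count of 0 allows, came to 0.137 to 0.231 CPM. These limits cover counting error only. In OCI-AML3, 5 of 6 myeloid markers (ELANE, CD33, SPI1, CSF3R and PTPRC) stood above 1 CPM in every library, and the summed level of the 6 was 1060 to 1350 CPM against 0 to 0.327 CPM in HEK293T. These 6 are members, kept by their level in OCI-AML3, so the line's label has no independent check here. The sixth, MPO, which encodes myeloperoxidase, the defining granule enzyme of the lineage, lay between 0.98 and 1.66 CPM. Markers of embryonic kidney or epithelium summed to 168 to 177 CPM in HEK293T and 5.31 to 7.94 CPM in OCI-AML3, and T lymphoid and erythroid markers to at most 0.469 CPM in either line. In OCI-AML3, 4 B lymphoid markers summed to 1.25 to 3.08 CPM and 4 megakaryocyte markers to 1.66 to 4.40 CPM, with 2 of each list at 1 CPM or more in at least 3 libraries. By edgeR's quasi-likelihood test ITGA2B (megakaryocyte) rose by 1.43 on the log2 scale between the DMSO times (adjusted p = 0.0002). It fell by 1.02 in tunicamycin at 24 h (0.0022). KRT18 (epithelial) rose in both comparisons, by 1.01 (0.019) and 0.94 (0.0022). At 4 h of tunicamycin GP1BA (megakaryocyte) fell by 0.97 (0.034). PAX5 (B lymphoid, -1.1 at 24 h) and LHX1 (kidney, -0.72 at 4 h) passed only with the 2 libraries named next. The part of these markers in the results was not tested. DMSO 4 h replicate 1 and tunicamycin 24 h replicate 3 stood farther from their own replicates than any other OCI-AML3 libraries did. Where a member passed the test only with or only without this pair, its value without them is given (an alternative chosen after seeing the data). The same holds where a member passed both ways and its log2 fold change moved by over 1.5 times.

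In DMSO at 24 h the members spanned a wide range of levels, compared here as CPM per kilobase of exon. CTSG, which encodes the granule protease cathepsin G, was the highest at 1668 ± 89.4 CPM per kilobase (SD, n = 3), followed by SRGN, the gene of serglycin, at 1224 ± 79.0. ELANE (neutrophil elastase) came next at 478 ± 28.1 and CEBPA (C/EBPα) at 341 ± 12.9, and the ranges of these 4 genes did not overlap. The other genes of the azurophil cluster were at like levels: AZU1 (azurocidin) at 149 ± 13.6 and PRTN3 (proteinase 3) at 143 ± 7.84 CPM per kilobase overlapped. At the low end were FGL2, HGF, MPO and ITGAM, the last at 0.260 ± 0.0698 CPM per kilobase, and no neighbours among these 4 could be told apart. Of the 40 pairs of neighbours in the whole order, 22 overlapped. The plot of levels in every library gives the members by role, in CPM with no correction for length.

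**Figure D1:**
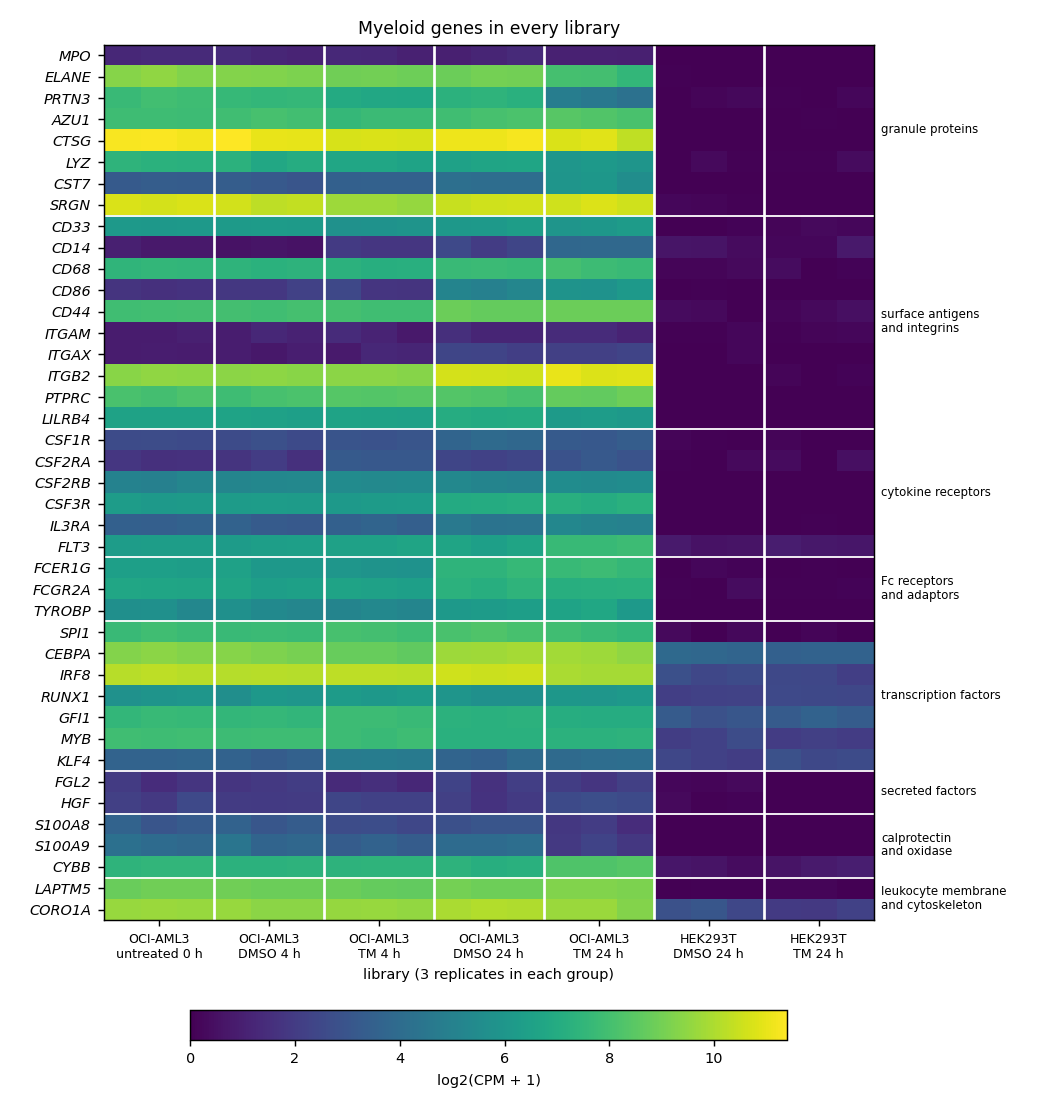
Level of the 41 kept genes (rows, by role) in each of the 21 libraries (columns, 3 per group) as log2(CPM + 1); TM is tunicamycin. Colours compare libraries within a row: most rows are bright across the 15 OCI-AML3 libraries and dark in the 6 HEK293T libraries, with CEBPA, IRF8, RUNX1, GFI1, MYB, KLF4 and CORO1A above 1 CPM there.

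All 41 members were lower in HEK293T than in OCI-AML3 in DMSO at 24 h, called (adjusted p no higher than 0.05 with a log2 fold change beyond 1 in size), where 24.9% of all genes tested were called lower. The rule kept genes by their level in OCI-AML3, so this count was largely fixed by it and nothing is read from it. For 22 members every HEK293T library in DMSO held 3 counts or fewer. Against that limit their levels in OCI-AML3 were at least 8.44-fold (MPO) to at least 15200-fold (CTSG) higher. Only 7 members reached 1 CPM in 3 or more HEK293T libraries, 6 of them transcription factors. CEBPA, the highest of them per kilobase of exon, was at 14.1, 13.1 and 11.6 CPM in DMSO. The 2 listed genes that missed the rule behaved differently from each other. CEBPE, a C/EBP factor of late granulocytes, reached at most 0.539 CPM in OCI-AML3 and had no counts in HEK293T. KIT, the stem cell factor receptor, was at 0 in all but 1 OCI-AML3 library, yet stood between 14.2 and 16.7 CPM in HEK293T with DMSO and between 12.1 and 13.3 CPM with tunicamycin.

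The stretch just before a gene's start is where lineage factors such as PU.1, RUNX and C/EBP often bind. Promoters of RefSeq (GRCh38.p14, 250 bases before to 50 after the start) were at hand for 32 of the 41 members, and not for MPO, ELANE, LYZ, CST7, SRGN, ITGAX, ITGB2, CSF2RB and SPI1. Short letter strings were searched on both strands. The 32 members had 40 promoters, since some genes have several starts, and promoters are compared with promoters. GAGGAAG, a form of the PU.1 sequence, was in 14 of the 40 (from 13 members) and in 13.6% of all 35116 promoters. TGTGGT (RUNX) was in 10 of the 40 and 13.1% of all, TTNNGNAA (C/EBP) in 20 of the 40 and 36.8%, and TGATGNAA, a composite of C/EBP and ATF factors, in 3 of the 40 and 3.62%. These are matches of letters and not sites. The last 2 strings could share bases, but no matches overlapped in the 6 promoters below. They are shown because CD14, CSF2RA and KLF4 are the members that changed most after 4 h of tunicamycin, AZU1 and PRTN3 are neighbours that moved apart by 24 h, and CTSG is the highest member. Capitals mark the matches, and each sequence reads 5′ to 3′ on the strand of its gene.
CD14, chr5:140633126-140633425, minus strand, PU.1 and C/EBP matches: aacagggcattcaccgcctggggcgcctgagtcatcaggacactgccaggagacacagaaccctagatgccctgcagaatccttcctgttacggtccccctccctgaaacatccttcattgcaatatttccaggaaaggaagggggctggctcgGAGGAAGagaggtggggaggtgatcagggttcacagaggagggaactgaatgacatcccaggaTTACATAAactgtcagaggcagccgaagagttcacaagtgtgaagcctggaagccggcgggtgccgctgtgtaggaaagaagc
CSF2RA, chrX:1268564-1268863, plus strand, C/EBP and PU.1 matches: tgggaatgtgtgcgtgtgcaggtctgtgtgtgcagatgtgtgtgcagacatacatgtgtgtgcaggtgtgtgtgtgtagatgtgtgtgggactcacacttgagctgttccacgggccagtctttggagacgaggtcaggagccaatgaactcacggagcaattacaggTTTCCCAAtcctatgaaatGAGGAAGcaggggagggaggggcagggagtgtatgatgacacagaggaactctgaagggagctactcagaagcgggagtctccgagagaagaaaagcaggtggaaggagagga
KLF4, chr9:107489720-107490019, minus strand, no match: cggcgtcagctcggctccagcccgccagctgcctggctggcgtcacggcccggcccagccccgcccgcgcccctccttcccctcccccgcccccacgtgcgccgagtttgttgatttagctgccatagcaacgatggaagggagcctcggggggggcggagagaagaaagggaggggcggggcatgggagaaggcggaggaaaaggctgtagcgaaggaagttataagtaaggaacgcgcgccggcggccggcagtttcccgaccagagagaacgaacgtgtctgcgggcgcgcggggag
AZU1, chr19:827587-827886, plus strand, a C/EBP match: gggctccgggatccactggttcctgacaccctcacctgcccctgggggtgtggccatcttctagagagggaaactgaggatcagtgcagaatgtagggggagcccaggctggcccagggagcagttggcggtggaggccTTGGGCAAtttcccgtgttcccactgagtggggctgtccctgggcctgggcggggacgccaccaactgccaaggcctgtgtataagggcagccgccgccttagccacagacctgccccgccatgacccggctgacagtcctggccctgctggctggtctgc
PRTN3, chr19:840749-841048, plus strand, PU.1 and C/EBP matches: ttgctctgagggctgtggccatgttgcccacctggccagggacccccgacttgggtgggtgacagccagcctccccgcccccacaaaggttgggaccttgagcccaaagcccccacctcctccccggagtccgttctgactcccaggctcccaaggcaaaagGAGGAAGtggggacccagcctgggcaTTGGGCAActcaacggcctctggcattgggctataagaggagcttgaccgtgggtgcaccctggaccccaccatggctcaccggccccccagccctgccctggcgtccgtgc
CTSG, chr14:24576201-24576500, minus strand, C/EBP-ATF, PU.1, PU.1 and C/EBP matches in this order: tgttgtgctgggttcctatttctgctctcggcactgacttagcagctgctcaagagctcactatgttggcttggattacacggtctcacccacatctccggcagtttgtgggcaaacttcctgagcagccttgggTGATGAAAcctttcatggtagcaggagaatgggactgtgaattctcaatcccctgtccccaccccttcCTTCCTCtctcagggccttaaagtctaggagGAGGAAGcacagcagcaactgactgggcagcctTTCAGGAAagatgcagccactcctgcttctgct

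The first comparison set DMSO at 4 h against untreated cells at 0 h, so that solvent and time cannot be told apart. None of the 41 members differed between DMSO at 4 h and untreated cells by edgeR's quasi-likelihood test, nor by limma voom or DESeq2, and 0% of all genes tested rose and 0% fell. At an unadjusted p under 0.05 there were 4 members. The share of all genes tested at that threshold is not given here, so nothing is read from this count. SRGN, named here because it was the single exception in any setting, stood at 1725, 1609 and 1700 CPM untreated and at 1571, 1217 and 1310 CPM in DMSO at 4 h. It passed without DMSO 4 h replicate 1 (log2 fold change -0.40, adjusted p = 0.044), without both libraries that stand apart (-0.40, adjusted p = 0.012) and with a filter of 1 count (-0.30, adjusted p = 0.041). Comparisons below share DMSO libraries with one another, and each is given by its own values.

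Time in culture moved more of these genes. Between DMSO at 4 h and at 24 h, with no tunicamycin in either, 20 members rose, 48.8% of them (21% of all genes tested rose), and 5 fell, 12.2% of them (21.6% of all fell). Of these, 7 were called, that is, changed by a log2 fold change beyond 1 in size as well, and all 7 were higher (3.48% of all genes tested were called higher and 0.664% lower). Surface antigens, cytokine receptors and Fc receptors held all 7. The median log2 fold change over the 41 was 0.23 against -0.02 over all genes tested. Without the pair of libraries that stand apart CSF2RA did not pass (0.67, adjusted p = 0.079, against 0.71 and 0.046 with them), while SRGN (0.24, adjusted p = 0.0083) and RUNX1 (-0.24, adjusted p = 0.02) did. In bulk RNA a larger share of cells that express a gene and more RNA per cell cannot be told apart, here and in what follows.

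CD86, a costimulatory ligand of antigen-presenting cells, had the largest change. It was at 2.59, 2.62 and 3.61 CPM at 4 h and at 33.9, 30.1 and 36.8 CPM at 24 h, a log2 fold change of 3.50 ± 0.188 (SE, adjusted p = 1.3e-11). CD14, the co-receptor for lipopolysaccharide, went from 0.465, 0.576 and 0.458 CPM to 4.66, 3.13 and 4.16 CPM, a log2 fold change of 2.98 ± 0.320 (adjusted p = 2e-07). Both genes were thus low to begin with. ITGAX, the integrin αX chain, was at 0.864, 0.640 and 0.916 CPM at 4 h and at 4.16, 4.06 and 3.39 CPM at 24 h (2.25 ± 0.293, adjusted p = 4.4e-06). Its partner chain ITGB2, the β2 integrin common to leukocyte integrins, was at 673, 714 and 668 CPM and then at 1643, 1570.0 and 1534 CPM (1.21 ± 0.0749, adjusted p = 1.4e-10). Per kilobase of exon ITGB2 stood at 217 ± 7.56 and ITGAX at 0.547 ± 0.0594 CPM in DMSO at 24 h (SD, n = 3). ITGAM, another chain that pairs with ITGB2, stayed within 0.864 to 1.94 CPM and did not pass the test.

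Among receptors, CSF1R, the receptor for macrophage colony-stimulating factor, rose by 1.31 ± 0.162 on the log2 scale (adjusted p = 1.4e-06), from 5.12, 5.89 and 4.92 CPM to 11.8, 14.4 and 13.2 CPM. IL3RA, the interleukin-3 receptor α chain, rose by 1.17 ± 0.130 (adjusted p = 6.1e-07) and CSF3R, the granulocyte colony-stimulating factor receptor, by 0.77 ± 0.069 (adjusted p = 9e-08). The 3 genes of Fc receptors and their adaptors rose (21% of all genes tested did). FCER1G, the signalling γ chain of Fc receptors, went from 90.8, 65.7 and 67.1 CPM to 171, 168 and 196 CPM (1.26 ± 0.107, adjusted p = 5.8e-09), TYROBP (the adaptor DAP12) rose by 0.82 ± 0.152 and FCGR2A by 0.80 ± 0.0964. Of the 8 granule genes 1 rose, 3 fell and 4 did not pass, where 21% of all genes tested rose and 21.6% fell. CST7, the protease inhibitor cystatin F, rose by 0.99 ± 0.129 (adjusted p = 7.8e-06), while LYZ (lysozyme) fell by 0.47, ELANE by 0.28 and PRTN3 by 0.28. MYB, a factor of immature progenitors, fell by 0.60 ± 0.074 (adjusted p = 1.3e-06), from 225, 228 and 233 CPM to 152, 149.5 and 151 CPM. GFI1 fell by 0.26, while CEBPA rose by 0.59, SPI1 by 0.43 and IRF8 by 0.40. CD44 and LILRB4, a leukocyte inhibitory receptor, rose by 0.76 and 0.51. CORO1A, an actin-binding coronin of leukocytes, rose by 0.54.

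**Figure D2:**
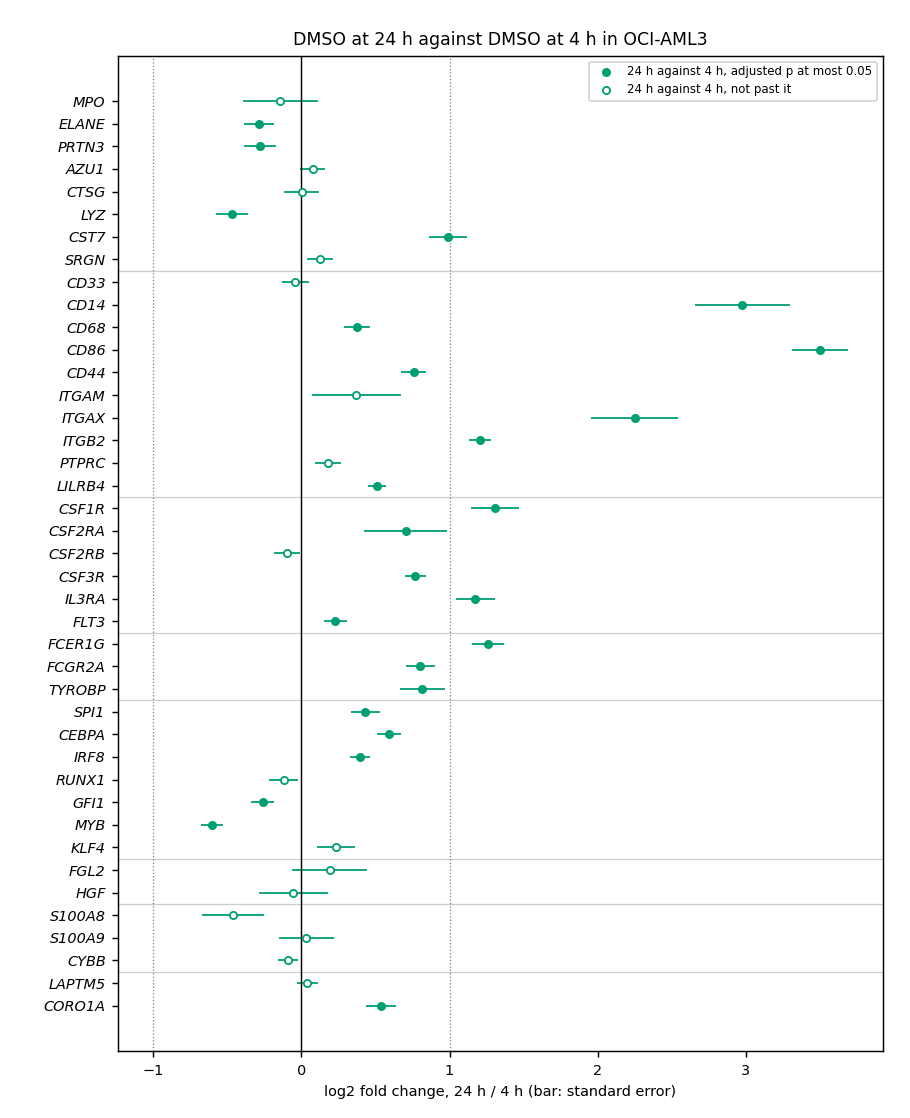
Log2 fold change of each kept gene between DMSO at 24 h and DMSO at 4 h in OCI-AML3 (x axis), with its standard error as a bar (n = 3 libraries per group); filled points have an adjusted p of at most 0.05, and dotted lines mark a log2 fold change of -1 and 1. The 7 genes to the right of the line at 1 are CD86, CD14, ITGAX, CSF1R, FCER1G, ITGB2 and IL3RA, and none lies to the left of -1.

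With tunicamycin for 4 h, against DMSO for 4 h, most granule genes were lower and a few regulators and receptors were higher. In all, 9 members rose, 22% of them (18.5% of all genes tested rose), and 12 fell, 29.3% of them (18.9% of all fell). Of these, 3 were called, all higher (3.45% of all genes tested were called higher and 1.47% lower). The median log2 fold change over the 41 members was 0.01, against -0.02 over all genes tested. When 1 library was left out 13 to 16 members passed, the 13 without tunicamycin 4 h replicate 1. The members lost in those fits are not named here. Without the pair of libraries that stand apart the number that passed was 19. In that fit S100A9, FCER1G, RUNX1 and FLT3 did not pass, as given below, while IL3RA (0.37, adjusted p = 0.039) and CORO1A (0.19, adjusted p = 0.05) did.

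The 3 called members were a surface antigen, a receptor and a transcription factor. CD14 was at 0.465, 0.576 and 0.458 CPM in DMSO and at 2.88, 2.47 and 2.54 CPM in tunicamycin, 5.20-fold higher (log2 fold change 2.38 ± 0.333, adjusted p = 5.6e-06). CSF2RA, the α chain of the receptor for granulocyte-macrophage colony-stimulating factor, went from 2.33, 3.07 and 2.003 CPM to 8.38, 7.75 and 7.70 CPM, 3.22-fold higher (1.69 ± 0.261, adjusted p = 2e-05). KLF4, a Krüppel-like factor linked to monocyte differentiation, went from 10.96, 9.09 and 10.5 CPM to 26.1, 26.6 and 24.5 CPM, 2.53-fold higher (1.34 ± 0.122, adjusted p = 9e-09). The gap between groups was wider than the spread within either for each of the 3. The common β chain CSF2RB, which pairs with CSF2RA, did not pass the test (0.17, adjusted p = 0.13).

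Of the 8 granule genes 6 fell (18.9% of all genes tested did), 1 rose (18.5% of all) and 1 did not pass. SRGN stood at 1571, 1217 and 1310 CPM in DMSO and at 847, 851 and 778 CPM in tunicamycin, a fall of 0.73 ± 0.0889 on the log2 scale (adjusted p = 1.6e-06). PRTN3 fell by the same 0.73 ± 0.108 (adjusted p = 1.2e-05), from 196, 187 and 192 CPM to 126, 113 and 109 CPM. CTSG fell by 0.43 ± 0.119 (adjusted p = 0.0076), from 2701, 2097 and 2037 CPM to 1698, 1712 and 1660.0 CPM. Its highest DMSO value was that of replicate 1, and without the pair of libraries that stand apart it fell by 0.28 (adjusted p = 0.0016). Smaller falls were those of LYZ (0.38 ± 0.108, and 0.23 with adjusted p = 0.047 without the pair), ELANE (0.28 ± 0.10) and AZU1 (0.28 ± 0.0864). CST7 rose by 0.36 ± 0.133 (adjusted p = 0.039), and MPO, at 1.09 to 1.47 CPM in tunicamycin, gave no difference that this depth could show.

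S100A8 and S100A9, the 2 chains of calprotectin, fell as well. S100A8 was at 10.9, 7.36 and 9.04 CPM in DMSO and at 5.18, 5.40 and 4.36 CPM in tunicamycin (fell by 0.86 ± 0.212, adjusted p = 0.0033). S100A9 was at 20.5, 11.7 and 12.9 CPM and then at 9.08, 10.97 and 8.93 CPM (fell by 0.63 ± 0.190, adjusted p = 0.014). The DMSO values of both were spread widely, with replicate 1, a library that stands apart, the highest. Without the pair that stands apart S100A8 fell by 0.70 (adjusted p = 0.0098) and S100A9 did not pass (-0.33, adjusted p = 0.12). CYBB, the gp91 subunit of the phagocyte oxidase, did not pass (0.07, adjusted p = 0.48). Of the transcription factors, CEBPA fell by 0.50 ± 0.0813 (adjusted p = 3.5e-05), from 640, 586 and 540 CPM to 433, 428 and 386 CPM, while RUNX1 rose by 0.30 ± 0.0954 (without the pair 0.19, adjusted p = 0.069) and SPI1 by 0.25 ± 0.0972. Of 2 antisense RNA genes that overlap CEBPA, 1 fell by 0.53 (adjusted p = 0.00026) and the other did not pass (-0.37, adjusted p = 0.064). Whether counting used the strand is not stated, so reads of CEBPA and these genes cannot be told apart. GFI1 rose by 0.22, and IRF8 and MYB did not pass.

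Among the rest at 4 h, CD33, the sialic acid-binding antigen of early myeloid cells, fell by 0.39 ± 0.0918 (adjusted p = 0.0016). PTPRC, the CD45 phosphatase of all leukocytes, rose by 0.34 ± 0.0878 (adjusted p = 0.0045). FLT3, the receptor of FLT3 ligand, rose by 0.20 ± 0.0756 (adjusted p = 0.042, and 0.17 with adjusted p = 0.075 without the pair that stands apart). FCER1G fell by 0.36 ± 0.109 (adjusted p = 0.011), but without the pair it did not pass (-0.18, adjusted p = 0.10). FGL2, a secreted fibrinogen-like protein at 1.38 to 1.88 CPM in tunicamycin, fell by 0.77 ± 0.269 (adjusted p = 0.029). The other 7 surface antigens did not pass the test, CD86 among them (0.04, adjusted p = 0.91, and -0.02 without the pair). With all libraries the 2 genes of leukocyte membrane and cytoskeleton did not pass either.

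**Figure D3:**
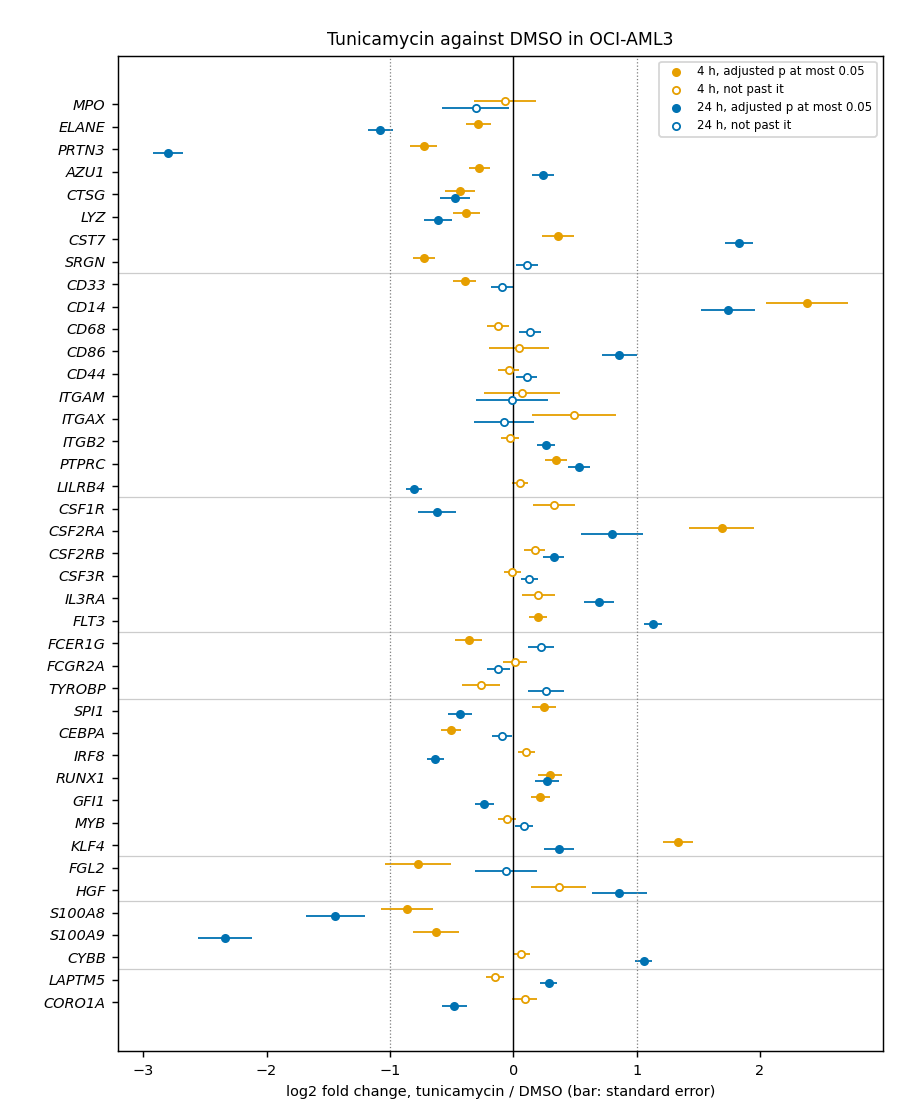
Log2 fold change of each kept gene between tunicamycin and DMSO in OCI-AML3 at 4 h (orange) and 24 h (blue), with its standard error as a bar (n = 3 libraries per group); filled points have an adjusted p of at most 0.05, and dotted lines mark a log2 fold change of -1 and 1. At 24 h PRTN3, S100A9, S100A8 and ELANE lie beyond -1 and CST7, CD14, FLT3 and CYBB beyond 1, while SPI1, GFI1 and AZU1 have filled points on opposite sides of 0 at the 2 times.

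After 24 h of tunicamycin, against DMSO for 24 h, PRTN3, S100A9, S100A8 and ELANE were called lower, and CST7, CD14, FLT3 and CYBB were called higher. In all, 15 members rose, 36.6% of them (23.5% of all genes tested rose), and 12 fell, 29.3% of them (27.7% of all fell). The calls were 4 higher (4.05% of all genes tested) and 4 lower (2.26%). The median log2 fold change was 0.11 over the members and -0.01 over all genes tested. Among the members that passed, the groups of AZU1 and KLF4 overlapped. Without the pair of libraries that stand apart 30 members passed and 7 were called. GFI1 did not pass in that fit, while SRGN, CD68 (0.24, adjusted p = 0.022), FCER1G (0.31, adjusted p = 0.0026) and TYROBP (0.47, adjusted p = 0.0022) did.

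PRTN3 had the largest fall. It stood at 157, 167 and 149.9 CPM in DMSO and at 27.7, 23.0 and 17.8 CPM in tunicamycin, 6.96-fold lower (log2 fold change -2.80 ± 0.121, adjusted p = 2.5e-14). ELANE went from 459.6, 516 and 498.5 CPM to 263, 251 and 185 CPM, 2.11-fold lower (-1.08 ± 0.102, adjusted p = 3.5e-08). The lowest ELANE value was that of tunicamycin 24 h replicate 3, a library that stands apart, and without it the log2 fold change was -0.90 (adjusted p = 5.5e-08), which still fell but was no longer past 1. Without DMSO 24 h replicate 2 it was likewise just short, at -0.998.

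PRTN3 and ELANE lie side by side on chromosome 19, and their neighbour AZU1 did not move with them. In GENCODE release 44 on GRCh38 the 3 genes span 31151 bases on the plus strand, AZU1 at chr19:825097-832018, PRTN3 at chr19:840999-848175 and ELANE at chr19:851014-856247, with gaps of 8980 and 2838 bases. AZU1 was at 238, 273 and 285 CPM in DMSO and at 348, 317 and 276 CPM in tunicamycin, a rise of 0.24 ± 0.0861 (adjusted p = 0.025) in which the groups overlapped. Without the pair that stands apart it rose by 0.37 (adjusted p = 0.00076). At 4 h all 3 had fallen. The gene next to ELANE on its other side, CFD (complement factor D, an adipsin protease also made by myeloid cells), which is not on the list, was at 1268 ± 178 CPM in DMSO and 820 ± 196 CPM in tunicamycin at 24 h (SD, n = 3) and fell by 0.63 (adjusted p = 0.00034).

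S100A9 was at 14.9, 14.8 and 16.3 CPM in DMSO and at 2.67, 3.95 and 2.56 CPM in tunicamycin at 24 h, 5.06-fold lower (-2.34 ± 0.221, adjusted p = 9.1e-08). S100A8 was at 5.95, 6.93 and 6.93 CPM and then at 2.60, 3.13 and 1.69 CPM, 2.72-fold lower (-1.44 ± 0.240, adjusted p = 7e-05). Without the pair that stands apart the log2 fold changes were -2.17 and -1.17, both still called. LYZ fell by 0.61 ± 0.111 (adjusted p = 9.7e-05), from 90.7, 99.9 and 102 CPM to 62.3, 69.03 and 60.3 CPM. An antisense RNA gene that overlaps LYZ fell too, by 0.66 (adjusted p = 0.0014). CTSG fell by 0.47 ± 0.119 (adjusted p = 0.0028), with 2186, 2241 and 2420.0 CPM in DMSO and 1751, 1901 and 1279 CPM in tunicamycin, the lowest again in replicate 3. Without the pair it fell by 0.28 (adjusted p = 0.0012). SRGN, lower at 4 h, did not pass at 24 h, with 1517, 1784 and 1523 CPM against 1379, 1531 and 1557 CPM (0.11, adjusted p = 0.31), but passed without the pair (0.19, adjusted p = 0.034).

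Other members rose at 24 h. CST7 was at 16.7, 15.9 and 16.02 CPM in DMSO and at 60.4, 65.1 and 47.5 CPM in tunicamycin, 3.55-fold higher (1.83 ± 0.115, adjusted p = 3.2e-10). Of the 8 granule genes 2 rose at 24 h, CST7 and AZU1, which is near the 23.5% of all genes tested, 4 fell (27.7% of all) and 2 did not pass. CD14 went from 4.66, 3.13 and 4.16 CPM to 13.1, 13.3 and 13.5 CPM, 3.34-fold higher (1.74 ± 0.219, adjusted p = 9.5e-07). CD14 thus rose between the DMSO times and with tunicamycin at both times, and its level was highest in tunicamycin at 24 h. FLT3 went from 101, 85.1 and 102 CPM to 202.5, 203 and 225 CPM, 2.19-fold higher (1.13 ± 0.0751, adjusted p = 4.1e-11). CYBB went from 162, 142 and 149.7 CPM to 305, 305 and 332 CPM, 2.08-fold higher (1.06 ± 0.0685, adjusted p = 2.8e-11). For each of these 4 genes the lowest tunicamycin library was well above the highest DMSO library.

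**Figure D4:**
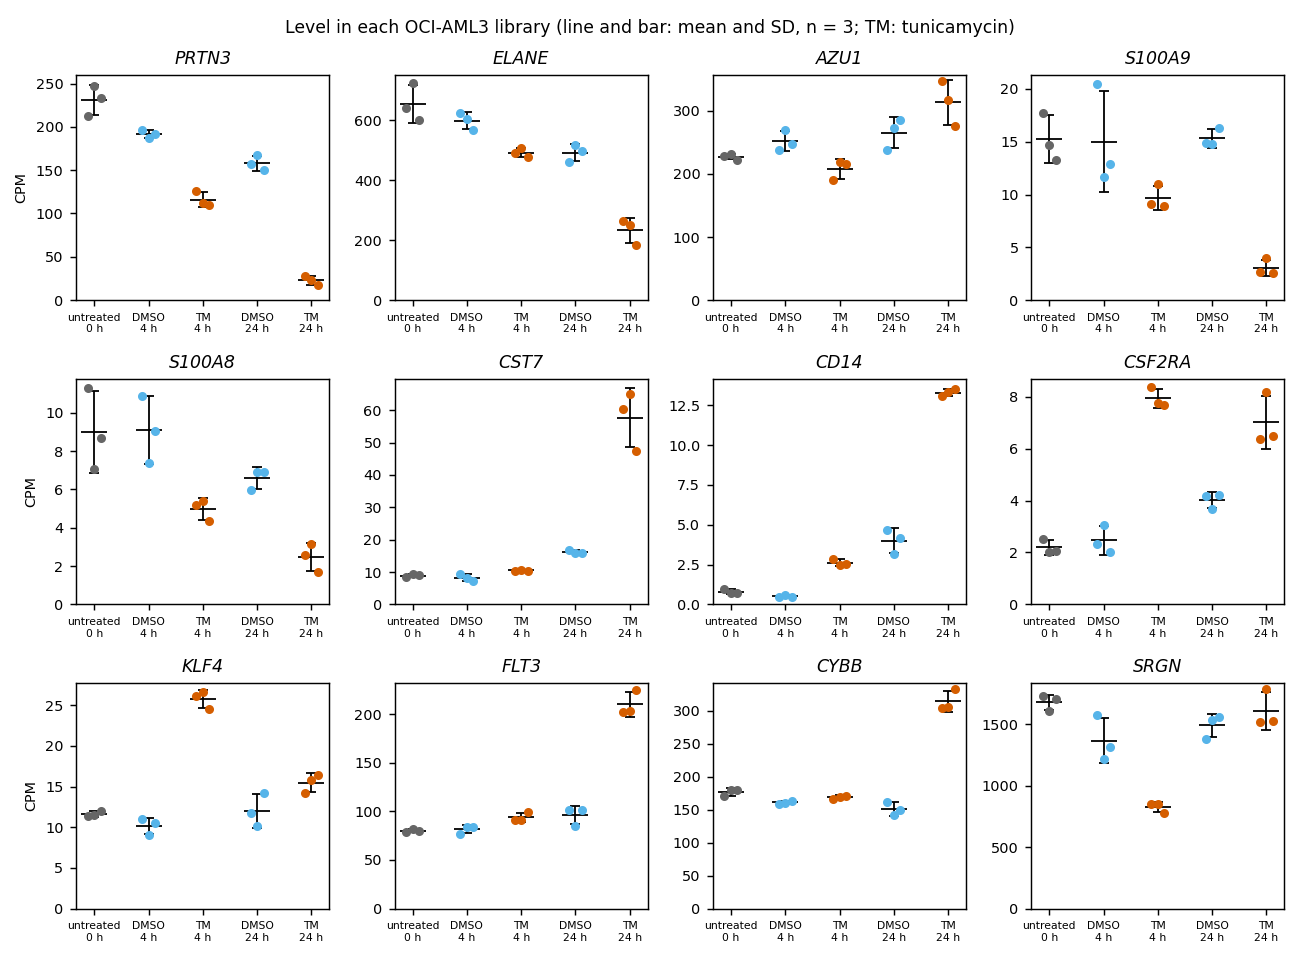
CPM of 12 members in each OCI-AML3 library (points; grey untreated, blue DMSO, orange tunicamycin) with the mean and SD of each group of 3 (line and bar), each panel on its own axis from 0. PRTN3 falls from between 149.9 and 167 CPM in DMSO to between 17.8 and 27.7 CPM in tunicamycin at 24 h, KLF4 is highest in tunicamycin at 4 h, and SRGN is lowest in tunicamycin at 4 h.

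Of 6 cytokine receptors 4 rose and 1 fell at 24 h, where 23.5% of all genes tested rose and 27.7% fell. Beside FLT3, CSF2RA rose by 0.80 ± 0.253 (adjusted p = 0.011), from 4.16, 3.66 and 4.24 CPM to 6.39, 8.19 and 6.48 CPM, and IL3RA by 0.70 ± 0.119 (adjusted p = 6.7e-05). CSF2RB rose by 0.33 ± 0.0862. CSF1R was the receptor that fell, by 0.62 ± 0.155 (adjusted p = 0.0021), from 11.8, 14.4 and 13.2 CPM to 8.50, 7.82 and 9.25 CPM, and CSF3R did not pass (0.13, adjusted p = 0.12). Of the surface antigens, CD86 rose by 0.86 ± 0.143 (adjusted p = 4.6e-05), from 33.9, 30.1 and 36.8 CPM to 57.5, 54.5 and 70.6 CPM, PTPRC by 0.53 ± 0.0878 and ITGB2 by 0.26 ± 0.0737. ITGB2 has an antisense partner, ITGB2-AS1, which rose by 0.81 (adjusted p = 0.00082). LILRB4 fell by 0.81 ± 0.0631 (adjusted p = 7.2e-09), from 134, 125 and 129.7 CPM to 73.8, 77.6 and 71.1 CPM.

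Of 7 transcription factors 2 rose (23.5% of all genes tested did), 3 fell (27.7% of all) and 2 did not pass at 24 h. IRF8, a factor of monocyte and dendritic cell fate, fell by 0.63 ± 0.0697 (adjusted p = 1.4e-07), from 1519, 1450.0 and 1495 CPM to 1002, 944 and 931.5 CPM. SPI1 fell by 0.44 ± 0.0974 (adjusted p = 0.00077), from 282, 307 and 269 CPM to 241, 208 and 186 CPM, and GFI1 by 0.24 ± 0.0766 (adjusted p = 0.013, and -0.18 with adjusted p = 0.066 without the pair that stands apart). RUNX1 rose by 0.27 ± 0.0966 and KLF4 by 0.37 ± 0.125. CEBPA (-0.09, adjusted p = 0.38) and MYB (0.09, adjusted p = 0.35) did not pass. Without the pair that stands apart the sign for CEBPA turned (0.04, adjusted p = 0.63). HGF, the hepatocyte growth factor gene, rose by 0.86 ± 0.223 (adjusted p = 0.003) at 4.84 to 5.66 CPM in tunicamycin. CORO1A fell by 0.48 ± 0.103 (by 0.31 without the pair that stands apart, adjusted p = 0.0018) and LAPTM5, a lysosomal membrane protein of leukocytes, rose by 0.29 ± 0.0718. An antisense RNA gene that overlaps LAPTM5 rose by 0.37. None of the 3 genes of Fc receptors and adaptors passed at 24 h with all libraries.

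Over both times, 16 members passed at 4 h and at 24 h (22.3% of all genes tested did). Of these, 7 were higher at both times (9.29% of all genes tested; CST7, CD14, PTPRC, CSF2RA, FLT3, RUNX1 and KLF4) and 6 were lower at both (9.11% of all; ELANE, PRTN3, CTSG, LYZ, S100A8 and S100A9). SPI1 and GFI1 rose at 4 h and fell at 24 h, and AZU1 fell at 4 h and rose at 24 h (3.91% of all genes tested passed in opposite directions). Without the pair of libraries that stand apart 12 of the 16 passed at both times, and FLT3, RUNX1, S100A9 and GFI1 passed at 1 time. With all libraries 9 members passed at neither time: MPO, TYROBP, CD44, MYB, CSF3R, CD68, ITGAX, FCGR2A and ITGAM. The share of all genes tested that passed at neither time is not given here, so nothing is read from this count. The difference between the times was tested by itself, as the effect of tunicamycin at 24 h minus that at 4 h. It was higher at 24 h for 11 members, 26.8% of them (15.1% of all genes tested), and lower for 10, 24.4% of them (20.3% of all). The 4 h and 24 h effects have their own DMSO libraries, and both DMSO groups enter this term.

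The effect on PRTN3 was lower at 24 h than at 4 h by 2.07 ± 0.160 on the log2 scale (adjusted p = 3.1e-09), that on S100A9 by 1.71 ± 0.294 (adjusted p = 0.00022) and that on ELANE by 0.80 ± 0.142 (adjusted p = 0.00023). AZU1 went the other way, by 0.52 ± 0.122 (adjusted p = 0.0026), so that the neighbours on chromosome 19 differed in the sign of this term. KLF4 was lower by 0.97 ± 0.175 (adjusted p = 0.0002), as its rise at 4 h was larger than that at 24 h. The term was positive for CST7 (1.47 ± 0.176), CYBB (0.99 ± 0.0964), FLT3 (0.93 ± 0.106) and SRGN (0.84 ± 0.125). It was negative for CSF1R (-0.95 ± 0.229), LILRB4 (-0.86 ± 0.0888), IRF8 (-0.74 ± 0.0982) and SPI1 (-0.68 ± 0.138). The terms for CD14 (-0.64, adjusted p = 0.24) and CSF2RA (-0.89, adjusted p = 0.062) did not pass. CD86, IL3RA and ITGB2 did not pass in several fits that left out 1 library, with adjusted p values of up to 0.13, 0.093 and 0.081. Without the pair of libraries that stand apart IL3RA did not pass (0.43, adjusted p = 0.066), while TYROBP (0.57, adjusted p = 0.012) and CD68 (0.33, adjusted p = 0.035) did.

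Other genes of the same functions were read beside the members: 72 genes in 6 lists, of which 60 could be tested. At 4 h of tunicamycin 13 of the 60 rose (18.5% of all genes tested) and 16 fell (18.9% of all). Of those that fell then, CTSB, CTSS and CEBPD did not pass without the pair of libraries that stand apart. NCF4 and SERPINB1 (both higher) passed only in that fit. At 24 h 27 rose (23.5% of all) and 20 fell (27.7%), and between the DMSO times 37 rose (21%) and 5 fell (21.6%). Of those that fell at 24 h, WAS, GRN, CYBA, RAC2, RNASE3, FES, IKZF1 and CEBPD did not pass without the pair that stands apart. HHEX, which rose, did not pass in that fit either, while LILRB1 (lower) and INPP5D (higher) did. Eosinophil granule ribonucleases fell at 4 h: RNASE2 by 1.89 ± 0.104 (adjusted p = 9.1e-12), from 159 ± 23.9 CPM to 43.0 ± 1.70 CPM, and RNASE3 by 1.48 ± 0.160. They are close paralogues whose reads the counting may have divided. At 24 h RNASE2 was lower by 0.44. MMP9, the gelatinase of later granules, rose by 1.87 ± 0.116 at 24 h (adjusted p = 1.3e-11), from 12.9 ± 1.32 CPM to 47.4 ± 6.64 CPM (SD, n = 3).

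Of 14 other myeloid transcription factors, 7 rose and 3 fell at 4 h, against the same shares of 18.5% and 18.9% over all genes. CEBPD, 1 of the 3 that fell, did not pass without the pair of libraries that stand apart. EGR1, an immediate early factor, rose by 2.12 ± 0.150 (SE) and CEBPB, a factor of myeloid differentiation, by 1.70 ± 0.0901. KLF4 was thus 1 of several regulators that were higher at 4 h. GATA2, a factor of early progenitors, fell by 1.45 ± 0.233 at 4 h and by 2.31 ± 0.238 at 24 h. PLEK, the pleckstrin gene, rose by 1.81 ± 0.0718 at 4 h. Among 16 other surface genes tested, 9 rose and 2 fell (FCGR1A and CD300A) at 24 h, where 23.5% of all genes rose and 27.7% fell. ANPEP (CD13) rose by 1.37 ± 0.129 and ITGAL, the αL chain that pairs with ITGB2, by 1.23 ± 0.0981. The inhibitory receptor CD300A rose by 4.70 ± 0.191 between the DMSO times, from 3.10 ± 0.952 CPM to 80.1 ± 6.07 CPM, and was lower in tunicamycin at 24 h, at 21.3 ± 4.31 CPM (fell by 1.91 ± 0.152, adjusted p = 8.9e-09). NCF1, an oxidase subunit with near-identical pseudogene copies that may share its reads, rose by 1.02 ± 0.0787 at 24 h. Of 4 other oxidase genes NCF1 was the 1 called (4.05% of all genes tested were called higher), NCF4 did not pass, and CYBA and RAC2 fell, by 0.33 (adjusted p = 0.04) and 0.21 (adjusted p = 0.011). Without the pair of libraries that stand apart CYBA (-0.10, adjusted p = 0.44) and RAC2 (-0.12, adjusted p = 0.13) did not pass.

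In HEK293T cells tunicamycin for 24 h moved 2 members up (12.6% of all genes tested rose) and 5 down (13.1% fell). Only 4 of these 7 were expressed there. Of all 41 members just 7 reached 1 CPM in 3 or more HEK293T libraries, so nothing is read from these counts against the shares. CORO1A went from 6.10, 7.18 and 4.43 CPM to 2.83, 2.67 and 3.63 CPM (fell by 0.96 ± 0.187, adjusted p = 0.00052). GFI1 rose by 0.39 ± 0.108 and KLF4 by 0.53 ± 0.152, while IRF8 fell by 0.33 ± 0.120 with overlapping groups. FGL2, HGF and SRGN made up the rest, on 10, 7 and 6 counts in the 3 DMSO libraries together and 0 in tunicamycin, levels near the limit of detection for which no fold is given. The number that passed was 4 without tunicamycin replicate 1 and 3 without tunicamycin replicate 2. Whether the effect differed between the lines was not tested here for these genes.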

How the data were processed

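Polyadenylated RNA of 21 libraries was sequenced. The authors used seqtk for trimming, STAR for alignment to GRCh38 and RSEM with an Ensembl annotation for counting, and deposited unscaled expected counts of 60671 genes. Of the values of a library 3.54 to 4.22% were not whole, and all were rounded. Whether counting used the strand is not given in the sources used here. Gene symbols, positions and exon lengths came from GENCODE release 44, and promoters from RefSeq.

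The 14012 genes that reached 1 CPM in 8 or more of the 21 libraries were tested. Libraries were scaled by TMM, and edgeR's quasi-likelihood test was run in R 4.3.3 (edgeR 4.0.16) on 1 fit of all libraries, with 1 mean for each of 7 groups and no replicate block. Benjamini-Hochberg adjustment ran over all genes tested. A gene rose or fell where its adjusted p did not exceed 0.05, and was called when its log2 fold change was also above 1 or below -1. Standard errors are log2 fold changes over the root of the F statistic. A fold against libraries of 3 counts or fewer is a lower bound at that limit, over the group. CPM values are scaled by TMM. Full statistics are given for members called under tunicamycin in OCI-AML3, and in each role for up to 3 members farthest from 0 in each direction that passed. The members and lists were chosen with earlier results of these data known, so no p is adjusted over a list. From the lists of other genes, 2 genes are not reported here and were left out of the counts. The fit was also run on simulated data, whose outcome is not given here and on which no result rests. Alternatives were limma voom (limma 3.58.1), DESeq2 (1.42.0), its size factors, no TMM, other filters, fewer groups, a replicate block and leaving out each library. Figures were drawn with matplotlib in Python.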

Additional observations from a re-analysis of the deposited data

Results flagged for a closer look

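For 21 members the effect of tunicamycin in OCI-AML3 differed between 24 h and 4 h by edgeR's interaction term. The effect was higher at 24 h for 11, 26.8% of the members (15.1% of all genes tested). It was lower for 10, 24.4% of the members (20.3% of all). Differences are on the log2 scale. The difference was -2.07 for PRTN3, -1.71 for S100A9, -0.97 for KLF4, -0.95 for CSF1R, -0.86 for LILRB4 and -0.80 for ELANE. It was -0.74 for IRF8, -0.68 for SPI1, -0.57 for CORO1A and -0.46 for GFI1. Positive differences were 0.29 for ITGB2, 0.41 for CEBPA, 0.43 for LAPTM5, 0.49 for IL3RA, 0.52 for AZU1 and 0.58 for FCER1G. The largest positive ones were 0.82 for CD86, 0.84 for SRGN, 0.93 for FLT3, 0.99 for CYBB and 1.47 for CST7. SRGN and FCER1G had fallen at 4 h and did not pass at 24 h.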

How the results depend on the processing

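Of 753 values of single genes under alternatives, 723 kept their direction and their side of the threshold, 30 kept the direction only and 0 reversed. Of 42 genes and comparisons, 36 kept their side of the threshold throughout. At 4 h of tunicamycin 13 to 16 members passed when 1 library was left out. Between DMSO at 4 h and untreated cells 1 member, SRGN, passed with a filter of 1 count and 1 without the 2 libraries that stand apart (an alternative chosen after seeing the data), and 0 to 1 when 1 library was left out. In HEK293T with only the groups compared, 1 member was called and 4 passed; leaving out 1 library gave 1 to 5 called and 3 to 7 passed. ELANE at 24 h ranged from -1.13 to -0.90 when 1 library was left out. With the replicate block 21 members passed at 4 h, 27 at 24 h and 22 in the interaction, and 24 between the DMSO times, 0 between DMSO and untreated and 6 in HEK293T. Same-numbered libraries correlated from -0.14 to 0.20, so the numbers were not taken as pairs; SRGN in HEK293T was the single named call lost under the block (adjusted p = 0.059). Without TMM the median of all genes moved by -0.12 between the DMSO times and by 0.34 between the lines, and by -0.18 between the lines with a filter of 1 count. MPO and ITGAM in every OCI-AML3 group, and ITGAX and CD14 in untreated cells and DMSO at 4 h, lie near 1 CPM, where depth limits what can be seen.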

Other observations

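Genes that overlap or adjoin members were also measured. ITGB2-AS1, which lies antisense to ITGB2, was at 12.6 ± 0.51 CPM in DMSO and 10.8 ± 1.45 CPM in tunicamycin at 4 h, and at 27.4 ± 7.57 CPM and 47.7 ± 8.72 CPM at 24 h (SD, n = 3). Its effect at 24 h minus that at 4 h was 1.03 (adjusted p = 0.006). CFD rose by 0.76 between the DMSO times (adjusted p = 7.5e-05), while ELANE beside it fell.

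Further members of other lists differed at 24 h of tunicamycin. LILRB2, an inhibitory receptor related to LILRB4, rose by 1.201 ± 0.264 (adjusted p = 0.00096), from 2.32 ± 0.372 CPM to 5.36 ± 0.0862 CPM, whereas LILRB4 fell. CEBPG, a partner of C/EBP and ATF factors, rose by 1.15 ± 0.0876 at 4 h and by 0.83 ± 0.0887 at 24 h. LSP1, a leukocyte actin-binding protein, rose by 3.81 ± 0.183 between the DMSO times, from 6.38 ± 1.66 CPM to 88.8 ± 5.53 CPM (adjusted p = 3.8e-13).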
